A study of Homo sapiens with 4 samples.

Results

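The genes examined were 9 secreted or membrane-bound matrix proteases, their inhibitors and a protease receptor, chosen by name from the 23217 gene symbols that the deposited table lists. They comprise the matrix metalloproteinases MMP1, MMP2 and MMP14, the tissue inhibitors of metalloproteinases TIMP1, TIMP2 and TIMP3, the urokinase plasminogen activator PLAU with its receptor PLAUR, and the serpin SERPINE2. All 9 were found in the table, as 17 transcripts. RNA came from LV-M100, a clonal low-variability subpopulation of the human breast cancer line MDA-MB-231, 48 h after transfection with siRNAs by lipofection, and it was sequenced after removal of ribosomal RNA. The control condition (siControl) consisted of 2 libraries, 1 from cells given the NC1 control siRNA and 1 from cells given the BLOCK-iT Fluorescent Oligo. The depleted condition (siSNRNP40) also consisted of 2 libraries, 1 for each of 2 siRNAs against SNRNP40, which encodes a protein of the spliceosomal U5 particle. LV-M100 is 1 clone, so its values describe that clone.

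The deposited values are FPKM (sequenced fragments scaled by transcript length and library total), with 1 value per transcript and condition. The 2 libraries of a condition are pooled in that value. No value can therefore be given with an error, the spread between replicates and the depth are unknown, and no difference described here has a replicate check or a test. The effects of the 2 siRNAs could not be compared. FPKM was summed over the transcripts of each gene, and ratios are siSNRNP40 over siControl on the log2 scale without a pseudocount. Genes with a mean summed FPKM over the conditions of at least 1 and a value above 0 in both were kept, which left 12334 genes with a median log2 ratio of 0.0034. SNRNP40 itself was at 40.4 FPKM in siControl and 6.12 FPKM in siSNRNP40, which is 84.9% lower (log2 ratio -2.72). The conditions thus differed in the targeted gene in the direction of their labels. Of 5 genes that mark the mesenchymal-like state of MDA-MB-231, all passed the filter, with VIM at 750.1 FPKM in siControl. ESR1, PGR, CDH1 and ESRP1, which this line lacks, were all below 0.1 FPKM, while EPCAM was at 10.6 and ERBB2 at 6.56 FPKM. The leukocyte gene PTPRC was at 0 in both conditions, and the fibroblast genes COL1A1, COL1A2, COL3A1 and DCN were each below 1 FPKM, while PDGFRB was at 2.28 and 1.81 FPKM.

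The siRNA strands against SNRNP40 are shown because short matches to the seed of an siRNA are known to lower transcripts other than its target. Capitals mark bases 11 to 17 of each strand, with which positions 2 to 8 of a guide strand complementary to the printed 18 bases would pair.
siSNRNP40 #1: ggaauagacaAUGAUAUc
siSNRNP40 #2: ggauuugaccGACUGAUa
Of the 3' UTRs of the 9 genes' canonical transcripts, which run from 98 bases in TIMP1 to 3664 bases in TIMP3, 0 held the 7 bases of either strand. Among 10016 expressed genes with an annotated 3' UTR, 12.4% held the site of siSNRNP40 #1 and 9.04% that of siSNRNP40 #2. The search says only that these letters are not in these sequences.

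Matrix metalloproteinases are zinc-dependent proteases that cleave collagens and other matrix proteins, and they are made as proenzymes that must be activated. MMP14 is anchored in the plasma membrane and activates the proenzyme of MMP2, with TIMP2 acting as the adaptor between them, while TIMPs at higher amounts block the active sites. The urokinase system works beside it: PLAU, held at the cell surface by PLAUR, converts plasminogen to plasmin, and serpins such as SERPINE2 inactivate the activators. Both systems are known for their part in the invasion of carcinoma cells, and MDA-MB-231 is widely used to study them.

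The 9 genes covered a wide range of levels. In siControl the order of summed FPKM was PLAU at 181.6, MMP14 at 134.1, TIMP1 at 85.0, TIMP2 at 46.5, PLAUR at 45.1, TIMP3 at 32.3, SERPINE2 at 5.09, MMP1 at 0.505 and MMP2 at 0.054. In siSNRNP40 it was PLAU at 137.2, MMP14 at 112.5, TIMP1 at 82.6, PLAUR at 60.1, TIMP2 at 29.7, TIMP3 at 25.0, SERPINE2 at 6.13, MMP1 at 0.288 and MMP2 at 0.022. The order was the same in both conditions except that PLAUR and TIMP2 changed places. Without an error it cannot be said whether neighbours in this order differed. PLAU was among the most abundant 3.61% and MMP14 among the most abundant 4.97% of the genes kept. MMP1 and MMP2 were below a mean of 1 FPKM and did not pass the filter, and the other 7 genes were above 5 FPKM in both conditions.

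**Figure D1:**
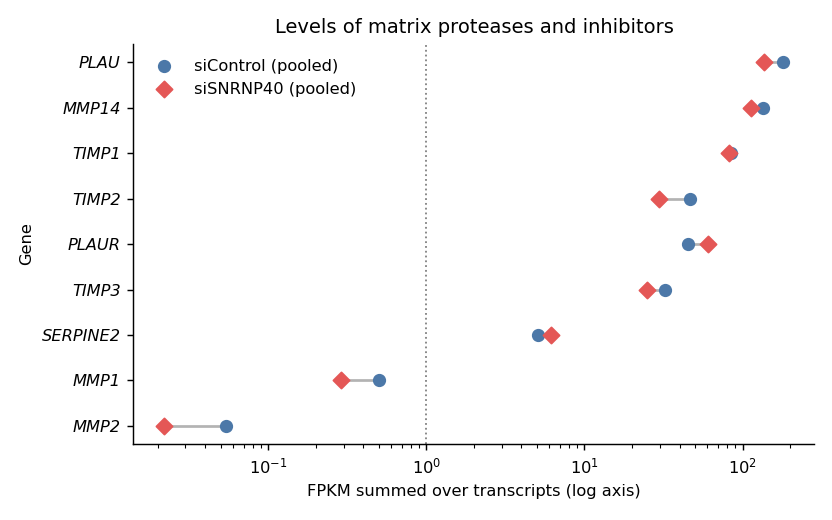
FPKM summed over transcripts (log axis) for each of the 9 genes, with circles for the pooled siControl and diamonds for the pooled siSNRNP40 libraries and a dotted line at 1 FPKM. A reader should see that 6 genes lie between 25.0 and 181.6 FPKM, SERPINE2 near 5, and MMP1 and MMP2 below 1, and that the diamond lies to the right of the circle for PLAUR and SERPINE2 only.

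Among the 7 genes that passed the filter, 5 were lower and 2 were higher in siSNRNP40, while 49.5% of all genes kept were lower. Only TIMP2 differed by more than 0.5 on the log2 scale, so that 1 gene was past -0.5 and 0 were past 0.5. Over all genes kept, 624 of 12334 (5.06%) were past -0.5, 646 (5.24%) were past 0.5, and 181 (1.47%) were past an absolute log2 ratio of 1, which 0 of the 7 genes reached. A single gene of 7 is too few to be set apart from these shares. The median log2 ratio of the 7 genes was -0.25, beside 0.0034 for all genes kept, and their median absolute log2 ratio was 0.37, beside 0.17. With MMP1 and MMP2 included, the median of the 9 log2 ratios was -0.37. These medians describe the list and are no test of it.

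**Figure D2:**
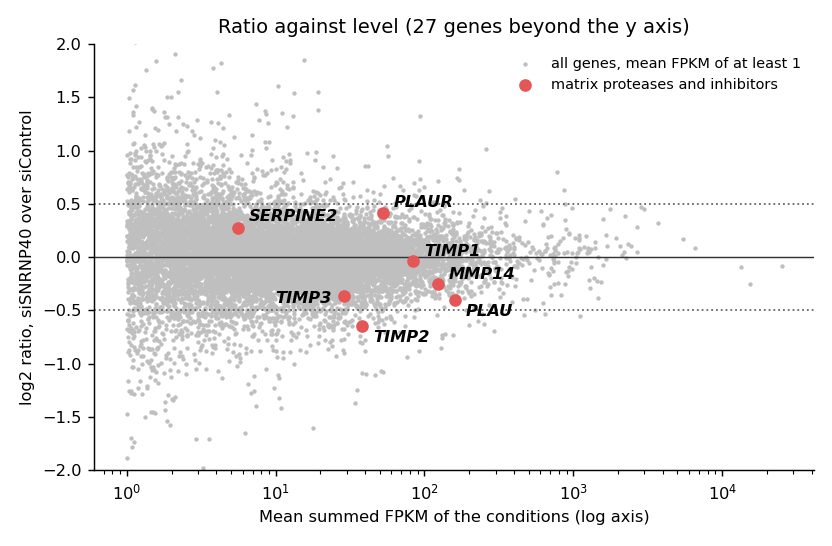
Log2 ratio of siSNRNP40 over siControl against the mean summed FPKM (log axis), with 1 grey point per gene kept and red points for the 7 named genes that passed the filter. Of the 12334 genes kept, 27 had an absolute log2 ratio above 2 and lie beyond the axis. Dotted lines mark 0.5 and -0.5. TIMP2 at -0.65 is the single red point outside the lines, PLAUR at 0.41 and PLAU at -0.41 lie just inside them, and grey points spread more widely at low FPKM.

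Among MMP1, MMP2 and MMP14, nearly all of the summed FPKM was that of MMP14. MMP14, the membrane-type enzyme that cleaves fibrillar collagen and activates pro-MMP2, was at 134.1 FPKM in siControl and 112.5 FPKM in siSNRNP40, a level 16.1% lower (log2 ratio -0.25). It is listed as a single transcript. Of 1088 genes whose mean FPKM was within a factor of 2 of that of MMP14, 21.2% differed at least as much in either direction, so a difference of this size was common at its level. MMP14 (chromosome 14 of GRCh37, 23305769 to 23318250, plus strand) has 10 exons in its canonical transcript.

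MMP1, the interstitial collagenase, was at 0.505 FPKM in siControl and 0.288 FPKM in siSNRNP40 (log2 ratio -0.81), all of it in 1 of its 2 listed transcripts. MMP2, the gelatinase that MMP14 activates, was at 0.054 FPKM in siControl and 0.022 FPKM in siSNRNP40 (log2 ratio -1.29). Both lay in the range where small differences in signal give large ratios, and with 1 FPKM added to both conditions the log2 ratios were -0.22 for MMP1 and -0.044 for MMP2. MMP14 thus made up 99.6% of the summed FPKM of the 3 metalloproteinases in siControl and 99.7% in siSNRNP40. The canonical transcript of MMP1 on chromosome 11 has 10 exons and that of MMP2 on chromosome 16 has 13.

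The 3 TIMP genes were not lower to the same degree. TIMP2, the inhibitor that also serves MMP14 as adaptor for pro-MMP2, was at 46.5 FPKM in siControl and 29.7 FPKM in siSNRNP40, a level 36.2% lower (log2 ratio -0.65). TIMP3, which unlike the others binds to the matrix, was at 32.3 and 25.0 FPKM, which is 22.5% lower (log2 ratio -0.37). TIMP1, a secreted inhibitor of most soluble metalloproteinases, was at 85.0 and 82.6 FPKM, which is 2.79% lower (log2 ratio -0.04). All 3 are listed as single transcripts, so none of these values depends on how fragments were divided among isoforms of the gene.

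Set against genes of like level, TIMP2 stood furthest out of the 7. Of 3153 genes with a mean FPKM within a factor of 2 of its own, 58 (1.84%), TIMP2 included, differed at least as much in either direction, and among the 1679 of these with a single listed transcript the share was 1.73%. The same share was 11.0% of 3719 genes for TIMP3 and 82.6% of 1634 genes for TIMP1. These shares rank single genes within the pooled values and are not p-values, since genes are not replicates of a condition. TIMP2 (chromosome 17 of GRCh37, 76849059 to 76921469, minus strand) has 5 exons in its canonical transcript. TIMP3 (chromosome 22, 33197691 to 33259028) also has 5 exons, and TIMP1 (chromosome X, 47441807 to 47446188) has 6.

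TIMP1 and TIMP3 lie within the genes SYN1 and SYN3, which are on the opposite strand. SYN1 was at 0.129 FPKM in siControl and 0.067 FPKM in siSNRNP40, and SYN3 at 0.010 and 0. The host genes were thus close to 0 beside the TIMP signal. TIMP2 also overlaps annotated genes on the opposite strand, and TIMP1 overlaps a further one. The deposited values list none of these under their annotated names, so their signal is unknown. Whether the authors counted fragments by strand is not given in the sources used here.

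Added over the named genes only, the TIMP sum and the metalloproteinase sum were lower by nearly the same factor. The summed FPKM of TIMP1, TIMP2 and TIMP3 was 163.8 in siControl and 137.3 in siSNRNP40 (log2 ratio -0.25), and that of MMP1, MMP2 and MMP14 was 134.6 and 112.8 (log2 ratio -0.26). The ratio of the sums was 1.22 in both conditions. The metalloproteinase sum is nearly that of MMP14 alone, so this ratio is no balance of the whole families. The 20 further MMP genes of the wider list below were left out of it, and their sum was 8.13 FPKM in siControl and 10.7 FPKM in siSNRNP40. Within the TIMP sum the share of TIMP1 was 51.9% in siControl and 60.2% in siSNRNP40, and the share of TIMP2 was 28.4% and 21.6%. TIMP2 per MMP14 was 0.347 in siControl and 0.264 in siSNRNP40, whereas TIMP1 per MMP14 was 0.634 and 0.734. These are ratios of transcript levels per length, and protein amounts were not measured in this experiment.

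**Figure D3:**
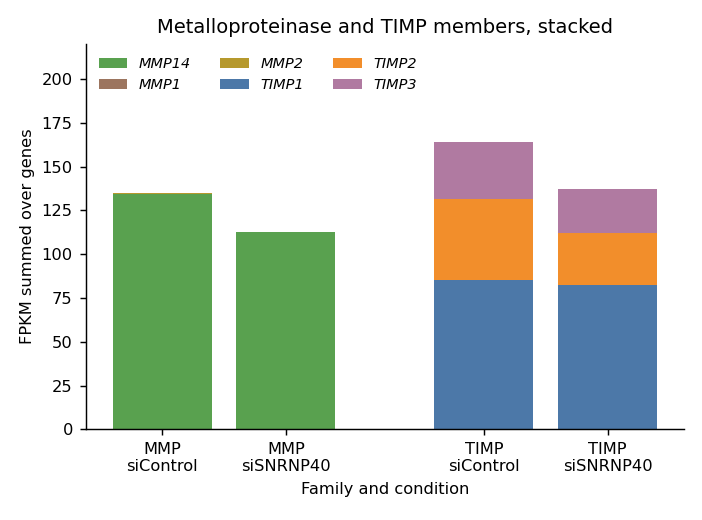
Stacked bars of FPKM summed over the metalloproteinases MMP14, MMP1 and MMP2 (left pair) and over TIMP1, TIMP2 and TIMP3 (right pair) in siControl and siSNRNP40, with 1 colour per gene and no error because libraries are pooled. The bars reach 134.6 and 112.8 for metalloproteinases, where MMP1 and MMP2 are too low to be seen, and 163.8 and 137.3 for TIMPs, where the TIMP2 segment is the one that shrinks most.

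The protease and the receptor of the urokinase system differed in opposite directions. PLAU was at 181.6 FPKM in siControl and 137.2 FPKM in siSNRNP40, a level 24.5% lower (log2 ratio -0.41). PLAUR, the lipid-anchored receptor that holds PLAU at the surface, was at 45.1 and 60.1 FPKM, which is 33.3% higher (log2 ratio 0.41). There were accordingly 4.03 FPKM of PLAU per FPKM of PLAUR in siControl and 2.28 in siSNRNP40. Among genes of like level, 6.97% of 803 differed at least as much as PLAU and 7.24% of 2458 at least as much as PLAUR.

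PLAU (chromosome 10 of GRCh37, 75668935 to 75677254, plus strand, 11 exons in the canonical transcript) has 2 listed transcripts. The more abundant was at 171.1 FPKM in siControl and 130.9 FPKM in siSNRNP40 (log2 ratio -0.39) and the other at 10.5 and 6.25 FPKM (-0.75). Both were lower, and the more abundant made up 94.2% of PLAU in siControl and 95.4% in siSNRNP40. The gene C10orf55, which overlaps PLAU on the opposite strand, was at 2.86 FPKM in siControl and 1.88 FPKM in siSNRNP40, so it was far below PLAU and lower as well.

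PLAUR (chromosome 19, 44150247 to 44174699, minus strand, 7 exons) has 3 listed transcripts, and they did not all differ alike. The most abundant was at 25.6 FPKM in siControl and 37.1 FPKM in siSNRNP40 (log2 ratio 0.54), and another was at 9.38 and 13.5 FPKM (0.52). The remaining transcript was at 10.1 and 9.50 FPKM (-0.09). Its share of PLAUR was 22.5% in siControl and 15.8% in siSNRNP40. The deposited identifiers do not name the known isoforms, so it is not stated which of the transcripts encode the anchored receptor.

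SERPINE2, also called protease nexin-1, inhibits urokinase and thrombin at the cell surface. It was at 5.09 FPKM in siControl and 6.13 FPKM in siSNRNP40, a level 20.6% higher (log2 ratio 0.27), and 32.3% of 4173 genes of like level differed at least as much. Of its 4 listed transcripts, 1 was at 2.93 and 4.40 FPKM (log2 ratio 0.59) and another at 2.15 and 1.72 FPKM (-0.32), while the last 2 were at 0 in siControl and below 0.01 FPKM in siSNRNP40. The more abundant transcript made up 57.7% of SERPINE2 in siControl and 71.8% in siSNRNP40. With the top transcript of each gene taken in place of the sum, PLAUR and SERPINE2 were both past 0.5.

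**Figure D4:**
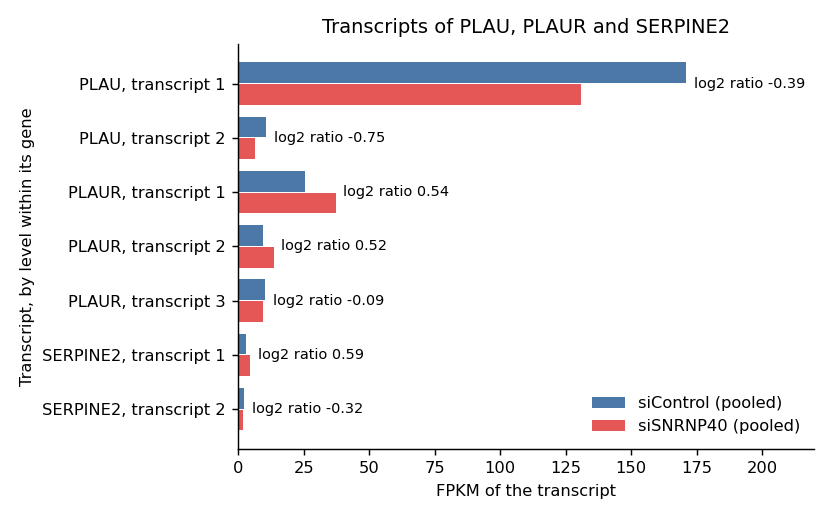
FPKM of single transcripts of PLAU, PLAUR and SERPINE2, numbered by mean level within the gene, in siControl and siSNRNP40, with the log2 ratio beside each pair and transcripts below a mean of 0.1 FPKM left out. Both PLAU transcripts are lower in siSNRNP40, 2 of 3 PLAUR transcripts are higher, and the SERPINE2 transcripts differ in opposite directions, 0.59 and -0.32.

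Promoters were searched for TGANTCA, where N is any base, as a loose form of the motif of the AP-1 family (JUN and FOS proteins). That family is a known regulator of many protease genes. The motif reads the same on both strands. The windows run from 250 bases before to 50 bases after each RefSeq gene start on GRCh38, a different build from that of the coordinates above. Windows, 8 in all, were found for 6 of the 9 genes (MMP14, TIMP1, TIMP3, PLAU, PLAUR and SERPINE2), and PLAUR alone held the motif. Counted by gene, 584 of 8440 expressed genes with such a window held it. Counted by window, 7.71% of all 35116 windows did. The match is shown with 10 bases on either side and the motif in capitals, read along the minus strand at chr19:43670339-43670365, and it begins 186 bases before the gene start.
PLAUR: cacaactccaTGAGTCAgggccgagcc
The match describes the sequence and not binding. Expressed genes with the motif in such a window had a median log2 ratio of -0.0028, and those without it -0.0044.

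A wider list of 58 pericellular protease genes was examined next. Of these, 25 passed the filter, and they were close to evenly split, with 12 higher and 13 lower in siSNRNP40 and a median log2 ratio of -0.057. Past 0.5 were 2 genes and past -0.5 another 2, together 4 of 25 beside 10.3% of all genes kept. A further 10 genes were at 0 in both conditions, among them the stromelysins MMP3 and MMP10 and the plasma protease inhibitor A2M. The remaining 23 were detected below a mean of 1 FPKM.

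TFPI2, a secreted Kunitz-type inhibitor of plasmin and other serine proteases of the matrix, had the largest difference of these 25 genes. It was at 66.1 FPKM in siControl and 309.2 FPKM in siSNRNP40, which is 4.68-fold higher (log2 ratio 2.23), and it is listed as a single transcript. It ranked 17 of 12334 among the genes kept from the highest ratio down, and of 671 genes of like level it alone differed that much. The GRCh37 position of TFPI2 is chromosome 7, 93514708 to 93520065, minus strand. Its promoter window held a match to the same loose pattern 87 bases before the gene start, at chr7:93890824-93890850 of GRCh38 on the minus strand. The base at N was A, where PLAUR has G, and this match too describes the sequence and not binding.
TFPI2: tccccgtgcaTGAATCAgccacccctc
Its 3' UTR also held 1 site for siSNRNP40 #2, at base 542 of 1424, and the surrounding bases are given with the site in capitals.
TFPI2 site: taactttcttGACTGATttaaaaagct
The same site was in 9.04% of the expressed genes searched. Its part in the level of TFPI2, which was higher and not lower in siSNRNP40, was not tested. The pooled values do not show whether the cells given siSNRNP40 #2 differed from those given siSNRNP40 #1.

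HTRA1, a secreted serine protease that degrades fibronectin and proteoglycans, was at 13.0 FPKM in siControl and 7.04 FPKM in siSNRNP40 (log2 ratio -0.88). ADAM28, a metalloproteinase with a disintegrin domain, was at 3.94 and 1.89 FPKM (-1.06). MMP19, a metalloproteinase of basement membrane proteins, was at 1.45 and 2.28 FPKM (0.66). Genes of like level that differed at least as much made up 1.38% for HTRA1, 2.29% for ADAM28 and 13.3% for MMP19.

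The remaining genes of the list are given by subgroup. Of 20 further MMP genes 2 passed the filter, the more abundant being MMP24 at 4.50 FPKM in siControl and 4.71 FPKM in siSNRNP40. Of 14 ADAM and ADAMTS genes 11 passed, from -1.06 for ADAM28 to 0.49 for ADAM19, and ADAM9, a membrane sheddase, was the most abundant at 96.2 and 76.9 FPKM (log2 ratio -0.32). The 3 inhibitors and partners of MMPs that passed lay between 0.03 and 0.12, with BSG, an inducer of MMP synthesis, at 64.5 and 65.8 FPKM.

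In the plasminogen system, the 5 of 9 genes that passed were all lower in siSNRNP40, each by less than 0.5, beside 49.5% lower among all genes kept. The most abundant was ENO1, a glycolytic enzyme that also binds plasminogen at the cell surface, at 1364.5 and 1178.7 FPKM (log2 ratio -0.21). PLAT, the tissue-type activator, was at 52.2 and 45.6 FPKM (-0.20). The activators PLAU and PLAT were both lower, and the inhibitor SERPINE2 and the receptor PLAUR higher, each by less than 0.5. Of genes of like level, 32.3% differed at least as much as SERPINE2, and its more abundant transcripts differed in opposite directions. No shift between activators and inhibitors can be read from these few genes. PLG, which encodes plasminogen itself, was below 0.1 FPKM in both conditions.

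**Figure D5:**
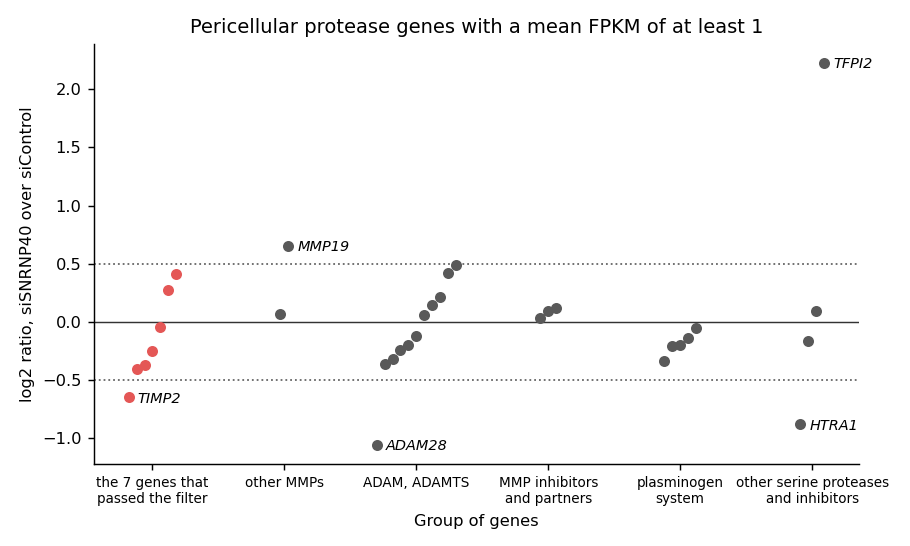
Log2 ratio of siSNRNP40 over siControl for the 7 named genes that passed the filter (red) and for the 25 of 58 listed pericellular protease genes that did (grey), by subgroup, with 1 point per gene and dotted lines at 0.5 and -0.5. TFPI2 at 2.23 and MMP19 at 0.66 lie above the lines, and ADAM28 at -1.06, HTRA1 at -0.88 and TIMP2 at -0.65 below them.

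Interferon-stimulated genes differed between the same conditions. All 8 genes of a short list were higher in siSNRNP40, with log2 ratios from 0.28 for MX1 to 0.91 for IFIH1, and 6 of them were past 0.5. Their summed FPKM was 425.1 in siControl and 701.8 in siSNRNP40. Among the 5 line markers, CAV1 was at 285.4 and 197.7 FPKM (log2 ratio -0.53) and the others lay between -0.12 and 0.29. The part of these differences in the values of the proteases and inhibitors was not tested.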

How the data were processed

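RNA sequencing of 4 LV-M100 libraries, 2 per condition, was examined from the authors' deposited transcript table. According to the study's methods and the submitters' processing notes, reads were trimmed by the authors (cutadapt 1.2.1) and aligned to hg19 (TopHat 2.0.8), after which Cufflinks assemblies were merged and passed to cuffdiff 2.0.2. FPKM as deposited is scaled to transcript length and library total, and the values pool the libraries of a condition, so depth and replicate spread are unknown and the planned limma test and leave-one-out fits were not run. Isoform values share fragments by a model, which is why FPKM was summed per gene symbol. The table's remaining columns hold the authors' own fold changes and significance and were not used.

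The 9 genes and the other lists were chosen with earlier results of these data known. Named from the 58 listed pathway genes are those with a mean summed FPKM of at least 1 and an absolute log2 ratio above 0.5, and the most abundant of each subgroup. A few further genes (PLAT, PLG, MMP3, MMP10, A2M and ADAM19) were named, and TFPI2 was added to the sequence searches, after their values were seen. Gene positions, exons and 3' UTRs came from GENCODE release 44 on GRCh37, which shares its coordinates with hg19: 99% of 10636 genes found by symbol overlapped their deposited locus. Promoter windows came from RefSeq on GRCh38.p14. The ratio and call steps were tested on simulated data. Python 3.11.15, numpy 2.4.6, pandas 2.3.3 and matplotlib 3.10.9 were used. Besides the 58 pathway genes, 1 further gene planned for that list was left out and is not reported here. Alternatives changed the pseudocount, the filter, the scaling and the summing of transcripts.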

Additional observations from a re-analysis of the deposited data

How the results depend on the processing

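No paired analysis was possible because the table holds 1 pooled value per condition. Leaving out replicates and the replicate block were not run for the same reason. Of 89 values under alternative settings, 76 moved by less than 0.1 on the log2 scale, or by no more than 1.5 times for a count, and 13 moved further; no value turned from above 0.1 to below -0.1 or the reverse. The log2 ratio of MMP1, -0.81, was -0.22 with a pseudocount of 1 FPKM and -0.64 with 0.1 FPKM, and that of MMP2, -1.29, was -0.044 and -0.34. With the most expressed transcript in place of the sum, PLAUR was at 0.54, SERPINE2 at 0.59, and 2 of the 7 genes were past 0.5 in place of 0. The number of all genes past 0.5 in either direction, 1270, was 711 with a pseudocount of 1 FPKM, 1908 with the most expressed transcript, 4183 without a filter and 501 at a mean of at least 5 FPKM. That of pathway genes, 4, was 18 without a filter and 2 at a mean of at least 5 FPKM. MMP2 gave no value when transcripts below a mean of 0.1 FPKM were left out. Centring and upper-quartile scaling subtract 0.0034 and -0.031 from every log2 ratio, so they say little about stability. For MMP1, MMP14, TIMP1, TIMP2 and TIMP3, all signal lay in 1 transcript. For these genes the most expressed transcript and the 0.1 FPKM transcript limit return the main value by construction. The count of 76 includes such values and is no measure of stability. Unknown depth limits the reading of genes below 1 FPKM most, but no level is known above which it ceases to matter. ADAM28 and MMP19, whose means lay between 1 and 5 FPKM, were past 0.5 and dropped out at the stricter minimum.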

Other observations

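Several genes of the pericellular protease list lay below a mean of 1 FPKM and are given as values only, having been chosen after their values were seen. MMP9, the gelatinase induced by inflammatory signals in many cell types, was at 0.138 FPKM in siControl and 1.52 FPKM in siSNRNP40. MMP13, a collagenase, was at 0.026 and 0.174 FPKM, and MMP11, stromelysin-3, at 0.408 and 0.702 FPKM. ADAMTS4, an aggrecanase, was at 0.680 and 1.30 FPKM. TIMP4, the remaining member of the TIMP family, was at 0.201 and 0.540 FPKM, far below TIMP1, TIMP2 and TIMP3 in both conditions. All 5 were higher in siSNRNP40, whereas MMP8, the neutrophil collagenase, was at 0.244 and 0.044 FPKM. MMP8 was not the only exception among the 23 listed genes detected below a mean of 1 FPKM. ST14, FAP, SPINT1, MMP15, MMP16, MMP21, MMP27 and ADAMTS5 were also lower. MMP17, MMP25, MMP28, PLG, SERPINB2, SERPINF2, VTN, DPP4 and SERPINB5 were higher. More of the 23 were thus higher than lower in siSNRNP40, but they did not share 1 direction. None of these values has an error, and at this level ratios change most with small differences in signal.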
